A study of Arabidopsis thaliana with 27 samples.

Results

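Root expression of 2 enzyme families was followed across cell types and along the root axis of Arabidopsis thaliana: the beta-glucosidases (BGLU) and the serine carboxypeptidase-like proteins (SCPL). The members are the probe sets of the Affymetrix ATH1 array to which the annotation assigns a single gene whose symbol begins with BGLU, SCPL or scpl and a digit. The root beta-glucosidase PYK10 (BGLU23) was left out. This gave 49 genes, 20 BGLU and 29 SCPL, of 22746 probe sets tested, 13513 of which have a single assigned gene. Each gene had 1 probe set, so no choice between probe sets had to be made, and 3 probe sets of the families that are assigned to a pair of genes were not used. The 20 beta-glucosidases were BGLU15, BGLU16, BGLU19, BGLU24, BGLU25, BGLU27, BGLU28, BGLU29, BGLU31, BGLU32, BGLU33, BGLU36 and BGLU40 to BGLU47. The 29 serine carboxypeptidase-like genes were scpl16, scpl18, scpl20 to scpl23, scpl25 to scpl35, scpl38 and scpl40 to scpl50 (the annotation writes SCPL27, SCPL32, SCPL34, SCPL43, SCPL45 and SCPL49 in capitals).

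Plant beta-glucosidases of this family cleave glucose from small molecules that are stored as glucosides, which frees hormones, lignin precursors, coumarins or defence compounds. In roots the family is best known for PYK10, the main protein of the ER bodies, which are spindle-shaped compartments of the endoplasmic reticulum. Serine carboxypeptidase-like proteins share the fold and the catalytic residues of peptidases that trim proteins from the carboxyl end. Some family members are peptidases, and others, such as SNG1, are acyltransferases that take an acyl group from a glucose ester in phenylpropanoid metabolism.

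RNA was measured on 27 arrays, 1 per sample, from GFP marker lines and from root sections, with plants on MS medium with 4.5% sucrose under 16 h of light and 8 h of darkness. The 5 lines had 3 arrays each: J3411:GFP (lateral root cap plus epidermis, C24 background), SCR:GFP (quiescent centre and endodermis, Landsberg background), WOL:GFP (stele, fading from the elongation zone, Columbia), GL2:GFP (atrichoblasts, the non-hair cells of the epidermis, Columbia) and J0571:GFP (cortex, endodermis and quiescent centre, Columbia). The 3 stages, all Columbia, had 4 arrays each: stage I, about 0.15 mm from the tip, where the root tip has its full diameter, stage II, about 0.30 mm from the tip, where cells begin to expand lengthwise, and stage III, about 0.45 to 2 mm up, where root hairs have finished elongating. SCR, WOL and GL2 name the genes whose promoters drive GFP, and J3411 and J0571 are names of enhancer trap lines. SCR replicate 1 carries no tissue label. Nothing in the labels tells how old the plants were, whether cells had been sorted or whether replicates were separate cultures, so the p-values reflect only the spread among these arrays, which may be technical. Genetic background and cell type cannot be told apart for J3411 and SCR, the only lines in their backgrounds.

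Values are MAS5 signals, a brightness per probe set in arbitrary units, and the number of arrays limits their precision. The array background was set at a signal of 14.8. Median signals ran from 27.3 to 43.7 and correlations with the own group from 0.888 to 0.952, lowest for SCR replicate 1. The cre spike-in controls split the arrays into a low class of 8 (SCR replicates 2 and 3, and from each stage replicates 1 and 2) and a high class of 19. Of the markers of the labelled tissues, 3 of 3 cortex genes were measured, with summed signals of 422 to 975 in J0571 and 18.5 to 166 in the other lines. The one measured stele gene of 9 was at 93.4 to 127 in WOL and at 5.58 to 27.6 in the other lines. The sum of 2 of 7 root cap genes was 1971 to 3814 in J3411, 1066 to 1251 in GL2 and 54.5 to 743 in SCR, WOL and J0571. Of these genes, AT4G04460 overlapped between J3411 (318 to 651) and WOL (217 to 429). None of the listed endodermis, xylem wall or atrichoblast genes had a probe set of its own, so the labels of SCR and GL2 were not checked. J3411 replicate 3 and SCR replicate 1 stood apart from the arrays of their own groups: the sum of 2 of 6 root hair genes was 54.9, 46.5 and 414 on J3411 replicates 1 to 3 and 164, 20.9 and 25.5 on SCR replicates 1 to 3, and the root cap sum was 3814, 3631 and 1971 in J3411 and 384, 65.9 and 54.5 in SCR. In whole tissue RNA, fewer cells of a type and less RNA per cell cannot be told apart.

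Both families held genes that differed between cell types and along the root. By a moderated F-test in limma, with p-values adjusted by Benjamini-Hochberg over all probe sets, 22 of the 49 members differed among the 5 lines (9 BGLU and 13 SCPL), against 26.1% of all probe sets. Among the 3 stages, 21 differed (6 BGLU and 15 SCPL), against 46.4% of all probe sets. The members that differed make up 44.9% of the list among the lines and 42.9% among the stages. Of these, 15 members differed both among the lines and among the stages, 7 among the lines alone, 6 among the stages alone, and 21 in neither test, against 19%, 7.1%, 27.4% and 46.5% of all probe sets. Among the 3 Columbia lines alone, 14 members differed, against 13.7% of all probe sets.

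**Figure D1:**
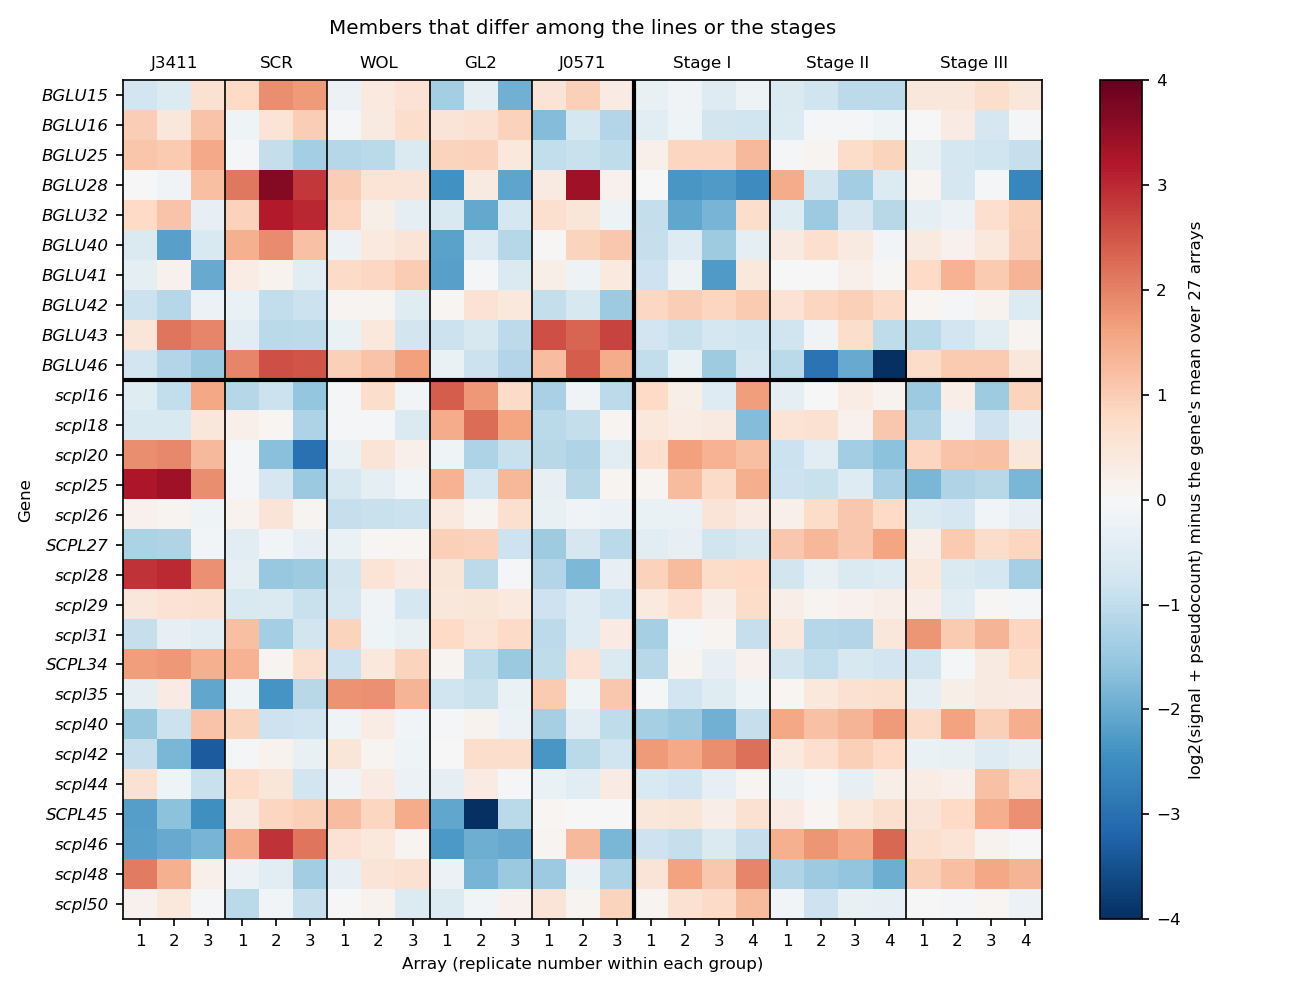
Heat map of the members that differed among the lines or among the stages (rows, BGLU above SCPL) over the 27 arrays (columns, grouped by line and stage). Colour gives log2 of the signal plus a pseudocount of 2.37 minus the mean of that gene over all arrays, red for higher and blue for lower; the scpl20, scpl25 and scpl28 rows are red in J3411, and the BGLU46, SCPL45 and scpl46 rows are blue in J3411 and GL2.

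Signal was above the array background on all 27 arrays for 13 members: BGLU15, BGLU16, BGLU25, BGLU42, scpl25, scpl26, SCPL27, scpl29, SCPL34, scpl40, scpl48, SCPL49 and scpl50. Of these 13, J3411 had the highest mean signal among the lines for 8 (2 BGLU and 6 SCPL), GL2 for 3, and SCR and J0571 for 1 each. Of the 8, BGLU16, scpl40 and SCPL49 did not pass the J3411 comparison below. The matching share of all probe sets was not determined. Another 13 members passed the array background on at most 5 arrays: BGLU19, BGLU24, BGLU31, BGLU33, BGLU36, BGLU43, scpl16, scpl22, scpl23, scpl31, SCPL32, scpl38 and scpl41. None of the 49 was below it on all 27 arrays.

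In the comparisons below, each line was set against the mean of the other 4 lines and each stage against another stage, and a log2 difference is given with its standard error (SE) on the scale of log2(signal + 2.37), which understates changes of dim genes. The 5 line comparisons share arrays, since every line is part of the set against which each other line is compared. Means are given with their SD over 3 arrays of a line, 12 of the other lines and 4 of a stage. A difference was called at an adjusted p below 0.05.

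J3411, labelled lateral root cap plus epidermis, had higher signals of several SCPL genes, led by scpl28, scpl25 and scpl20. Of the 49 members, 13 differed in J3411, against 10.3% of all probe sets: 8 were higher (2 BGLU and 6 SCPL, against 5.02% of all probe sets) and 5 were lower (2 BGLU and 3 SCPL, against 5.28%). The median log2 difference was 0.09 over the SCPL genes and -0.01 over all probe sets. In 5 of the 13 the J3411 arrays did not overlap the other line arrays, which held together with a call for 2.49% of all probe sets.

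The signal of scpl28 (AT2G35770) was 374, 399 and 178 on the 3 J3411 arrays, and 12.3 at the lowest, 32.8 at the median and 72.5 at the highest on the 12 arrays of the other lines. All J3411 arrays lay above all others, with a log2 difference of 3.14 ± 0.40 (SE, adjusted p = 0.000113). The gene scpl25 (AT3G02110) was at 664, 730 and 253 in J3411, against a lowest of 23.1, a median of 53.4 and a highest of 182 in the other lines (log2 difference 3.04 ± 0.43, SE, adjusted p = 0.000281). Here too the groups did not overlap, and replicate 3 was again the dimmest J3411 array. The signal of scpl20 (AT4G12910) was 327, 342 and 221 in J3411, against 8.99, 56.0 and 127 at the lowest, median and highest in the other lines (log2 difference 2.48 ± 0.42, SE, adjusted p = 0.00117). The lower signals of these 3 genes on J3411 replicate 3 went with its lower root cap sum and higher root hair sum, whose part in the result was not tested.

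A further 3 SCPL genes were higher in J3411. SCPL34 (AT5G23210) was at 672, 708 and 576 in J3411, against 74.6, 227 and 560 at the lowest, median and highest in the other lines, a narrow gap between the groups (log2 difference 1.68 ± 0.39, SE, adjusted p = 0.011). Signals of scpl48 averaged 1066 ± 613 in J3411 and 291 ± 163 in the other lines (SD, n = 3 and 12), a log2 difference of 1.88 ± 0.40 (SE, adjusted p = 0.00595), with overlap at J3411 replicate 3 (455). Those of scpl29 averaged 564 ± 32.3 in J3411 and 318 ± 129 in the other lines (SD), a log2 difference of 0.92 ± 0.15 (SE, adjusted p = 0.000984). SCPL34 missed the threshold when J3411 replicate 1 (adjusted p = 0.0641) or 2 (0.0721) was left out, and scpl48 when replicate 1 was (0.08).

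**Figure D2:**
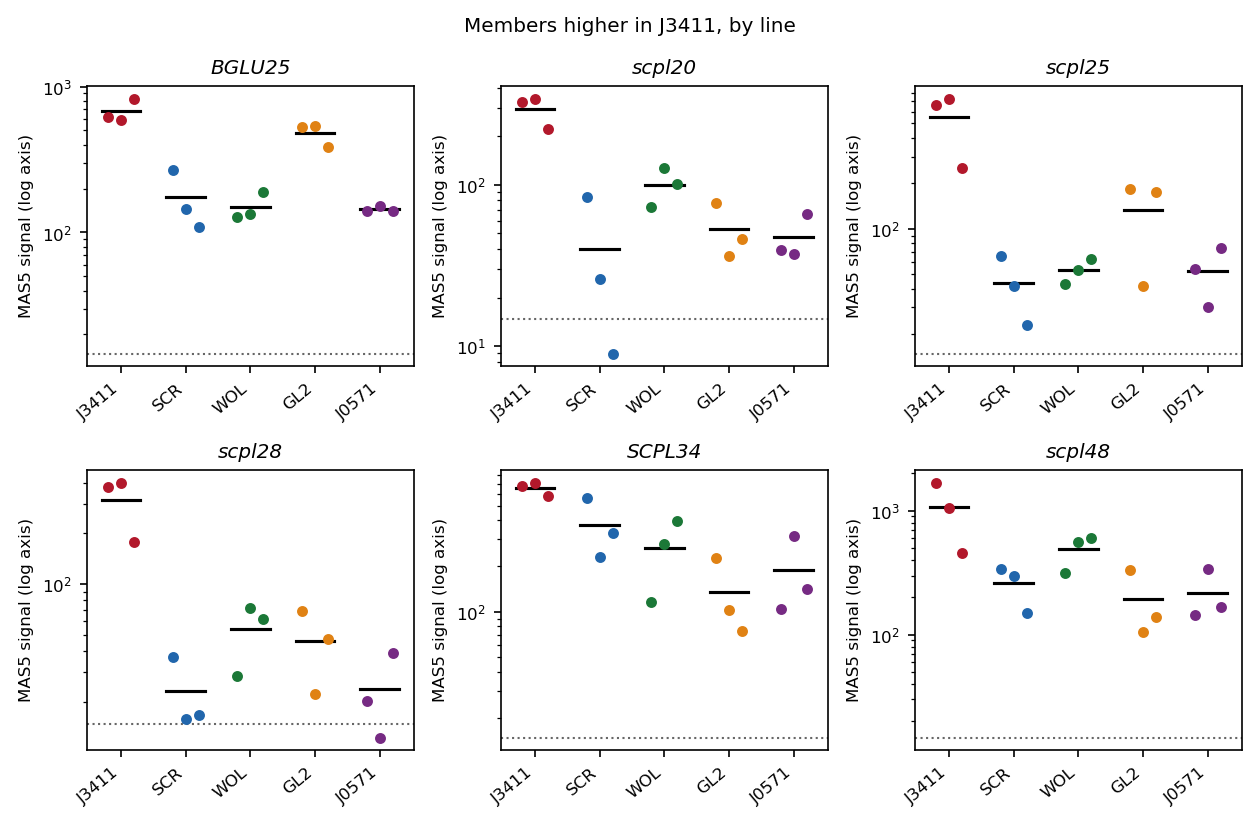
MAS5 signal (log axis) of BGLU25 and 5 SCPL genes that were higher in J3411, by line; points are arrays, black bars the mean of 3 arrays and the dotted line the array background of 14.8. The J3411 points of BGLU25, scpl20, scpl25, scpl28 and SCPL34 lie above every other point of their panel, and J3411 is the leftmost line in each panel.

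Of the beta-glucosidases, BGLU25 (AT3G03640), a member of the same subfamily as PYK10, was higher in J3411. Its signal was 620, 592 and 825 on the J3411 arrays, against 109, 148 and 538 at the lowest, median and highest in the other lines (log2 difference 1.72 ± 0.22, SE, adjusted p = 0.000142), without overlap. BGLU43 averaged 16.4 ± 9.28 in J3411 and 9.05 ± 13.7 in the other lines (SD), near the array background, and it missed the threshold when J3411 replicate 2 (adjusted p = 0.186) or 3 (0.0855) was left out. The genes lower in J3411 were BGLU46, SCPL45, scpl42, BGLU40 and scpl46. BGLU46 (AT1G61820), which in vitro hydrolyses the glucosides of lignin precursors, averaged 23.3 ± 6.29 in J3411 and 161 ± 109 in the other lines (SD; log2 difference -2.28 ± 0.27, SE, adjusted p = 5.28e-05). SCPL45 averaged 34.1 ± 10.7 in J3411 and 198 ± 129 in the other lines (SD; log2 difference -1.96 ± 0.43, SE, adjusted p = 0.0066). The groups overlapped for both genes, in each case with GL2 arrays. Signals of scpl46 were not above the array background on any J3411 array, and the gene was lower there (means 2.39 and 34.6, adjusted p = 0.00846). The fold was 1.92 with the arrays of both groups that lay under the array background set at it. Leaving out J3411 replicate 1 (adjusted p = 0.0574) or 2 (0.0505) ended the call of scpl46, leaving out J3411 replicate 2 (0.313) or WOL replicate 2 (0.0521) or 3 (0.0513) that of BGLU40, and leaving out J3411 replicate 3 that of scpl42 (0.0759).

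GL2, labelled non-hair epidermis, had lower signals of 7 beta-glucosidases, 5 of which lost the call when 1 GL2 array was left out. Of the 49 members, 16 differed in GL2, against 12.8% of all probe sets. The 10 lower ones were 7 BGLU and 3 SCPL genes, against 7.69% of all probe sets, and the 6 higher ones were 2 BGLU and 4 SCPL genes, against 5.1%. The median log2 difference over the 20 BGLU genes was -0.89, against -0.09 over all probe sets, and over the SCPL genes it was -0.05. Only 11 of the 20 BGLU genes had a mean over the 27 arrays above the array background. In 3 of the 16 the GL2 signals did not overlap the others, which held together with a call for 3.84% of all probe sets. One is scpl18, and in the other 2, BGLU27 and BGLU32, arrays of both groups were under the array background, where the order of signals carries no weight.

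BGLU46 averaged 31.3 ± 11.2 in GL2 and 159 ± 111 in the other lines (SD; log2 difference -1.82 ± 0.27, SE, adjusted p = 0.000309). SCPL45 averaged 36.1 ± 32.0 in GL2 and 197 ± 129 in the other lines (SD; log2 difference -2.43 ± 0.43, SE, adjusted p = 0.00131). BGLU15 (AT2G44450), an enzyme that acts on flavonol glycosides, averaged 134 ± 78.2 in GL2 and 464 ± 265 in the other lines (SD; log2 difference -1.73 ± 0.33, SE, adjusted p = 0.00273). BGLU28, a gene known for glucosinolate turnover under sulfur deficiency, BGLU40, BGLU43, BGLU27, BGLU32, SCPL34 and scpl46 were lower too. BGLU43 was under the array background on all arrays of GL2, and also on all arrays of SCR and WOL. BGLU27 was at 9.42, 7.77 and 8.04 on the GL2 arrays, all under the array background, against 10.7, 21.7 and 36.6 at the lowest, median and highest in the other lines, of which 2 of 12 arrays were under it too. The difference was called (adjusted p = 0.0246), and the fold was 1.52 with the dim arrays of both groups set at the array background. BGLU32 was at 5.22, 0.488 and 4.78 in GL2, also under the array background, against 6.61, 16.8 and 103 in the other lines, of which 5 of 12 arrays were under it. It too was called (adjusted p = 0.0132), with a fold of 1.52 computed in the same way. Against the other Columbia lines alone, which share the genetic background of GL2, the calls of BGLU32 (log2 difference -1.39, adjusted p = 0.113) and SCPL34 (-0.71, adjusted p = 0.364) were lost.

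Of the genes higher in GL2, scpl18 (AT1G33540) was at 41.2, 71.2 and 44.8 on the GL2 arrays, against 4.32, 10.2 and 19.0 at the lowest, median and highest in the other lines. The groups did not overlap, 10 of the 12 other arrays were under the array background, and the gene was at least 3.35-fold higher in GL2 (adjusted p = 0.00157). BGLU25 averaged 482 ± 85.9 in GL2 and 287 ± 246 in the other lines (SD; log2 difference 1.11 ± 0.22, SE, adjusted p = 0.00378), so that J3411 and GL2, the lines labelled with epidermis, were both above the rest for this gene. BGLU42, known for the release of the coumarin scopoletin from its glucoside, averaged 183 ± 31.3 in GL2 and 94.9 ± 34.0 in the other lines (SD; log2 difference 1.00 ± 0.24, SE, adjusted p = 0.0109). The scpl29 signal was 523 ± 16.4 in GL2 and 328 ± 148 in the other lines (SD, adjusted p = 0.00298), and scpl16 and scpl26 were higher as well. Calls were lost without GL2 replicate 1 for BGLU27, BGLU28, BGLU40, scpl16 and scpl26 (adjusted p = 0.0625 to 0.117), without GL2 replicate 2 for BGLU27, BGLU32, BGLU42 and SCPL34 (0.0731 to 0.141), and without GL2 replicate 3 for BGLU27, BGLU28, BGLU40, BGLU42, BGLU43, scpl26 and SCPL34 (0.0504 to 0.236). The SCPL34 call was also lost without J3411 replicate 1 or 2 or WOL replicate 2 or 3 (adjusted p = 0.0504 to 0.0571).

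SCR, labelled quiescent centre and endodermis, showed the opposite side of several of these genes, but limma made none of these calls with the spike-in class in the fit. Of the 49 members, 16 differed in SCR, against 17.5% of all probe sets: 7 were higher (5 BGLU and 2 SCPL, against 7.61% of all probe sets) and 9 lower (2 BGLU and 7 SCPL, against 9.86%). In 2 of the 16, scpl46 and BGLU40, the SCR arrays did not overlap the others, which held together with a call for 4.78% of all probe sets. Without SCR replicate 2 there were 8 calls and without SCR replicate 3 there were 6. When the spike-in class entered the fit as a block, and also within the high class, where SCR replicate 1 is alone and is taken to vary like the other lines, limma called 0 of the 49. At an unadjusted p under 0.05 there were 8 members with the block and 7 within the high class, and after adjustment limma called 1.78% and 1.71% of all probe sets in these fits.

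BGLU46 was at 213, 331 and 316 on the SCR arrays, and averaged 287 ± 64.1 there and 94.9 ± 84.4 in the other lines (SD; log2 difference 2.09 ± 0.27, SE, adjusted p = 0.000164). All SCR arrays were bright, and the one J0571 array at 293 overlapped them. Within the high class the log2 difference of BGLU46 was 1.69 (adjusted p = 0.0798). The signal of scpl46 (AT2G33530) was 51.4, 141 and 82.0 in SCR, against 1.53, 2.97 and 44.5 at the lowest, median and highest in the other lines, without overlap, with 7 of those 12 arrays under the array background. It was at least 4.58-fold higher in SCR (log2 difference 3.14 ± 0.47, SE, adjusted p = 0.000599), and the log2 difference was 2.45 in the high class alone, where SCR replicate 1 stands alone. BGLU40 (AT1G26560) was at 77.3, 108 and 65.2 in SCR, against 4.20, 20.9 and 61.2 in the other lines, again without overlap (log2 difference 1.86 ± 0.39, SE, adjusted p = 0.00492), and 1.79 in the high class alone (adjusted p = 0.222). The high-class array, SCR replicate 1, was the dimmest of the 3 SCR arrays for BGLU46 and scpl46 and lay between the other 2 for BGLU40.

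In several other genes SCR replicate 1 lay nearer to the other lines, and 4 of them are given first. BGLU32 (AT5G24550) was at 19.7 on SCR replicate 1 and at 103 and 91.9 on replicates 2 and 3, against 0.488, 9.59 and 23.2 at the lowest, median and highest in the other lines, of which 8 of 12 arrays were under the array background, and its log2 difference was 2.38 in all arrays (adjusted p = 0.0039) and 0.93 in the high class alone (0.514). BGLU15 was at 493 on SCR replicate 1 and at 1028 and 920 on replicates 2 and 3, with a log2 difference of 1.60 (adjusted p = 0.00453) in all arrays and 0.95 in the high class alone (0.413). BGLU28 was at 78.1 on replicate 1 and at 233 and 129 on replicates 2 and 3, with a log2 difference of 2.63 (adjusted p = 0.0108) that missed the threshold without SCR replicate 2 (0.093) or 3 (0.0556). On the low side, scpl20 was at 84.1, 26.2 and 8.99 on SCR replicates 1 to 3, and its log2 difference was -1.62 in all arrays (adjusted p = 0.0159) and -0.11 in the high class alone (0.921). It missed the threshold when SCR replicate 2 (adjusted p = 0.0797) or 3 (0.161) was left out. For scpl25, scpl28 and scpl35, also called lower in SCR, replicate 1 was the brightest SCR array. Their log2 differences were -1.41, -1.42 and -1.45 in all arrays and -0.72, -0.70 and -0.41 in the high class alone. The other lower calls were BGLU25, BGLU43, scpl16, scpl29 and scpl50. For scpl50 the log2 difference was -0.80 in all arrays and -1.18 in the high class alone. SCR replicate 1 also had higher root cap and root hair marker sums than the other 2 SCR arrays, and the part of the spike-in class and of these markers in the SCR differences was not tested.

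WOL, labelled stele, differed in 4 of the 49 members, a share near the 6.66% of all probe sets. Higher in WOL were SCPL45 and scpl35 (5.27% of all probe sets were higher), and lower were scpl26 and BGLU25 (1.38%). For 2 of the 4 the WOL arrays did not overlap the others, which held together with a call for 3.11% of all probe sets. The signal of scpl26 (AT2G35780) was 93.1, 94.2 and 96.2 on the WOL arrays, against 145, 192 and 279 at the lowest, median and highest in the other lines, without overlap (log2 difference -1.01 ± 0.15, SE, adjusted p = 0.000588). That of scpl35 (AT5G08260) was 169, 173 and 125 in WOL, against 7.33, 37.4 and 101 in the other lines, also without overlap (log2 difference 2.14 ± 0.46, SE, adjusted p = 0.00952). SCPL45 averaged 350 ± 76.3 in WOL and 119 ± 98.9 in the other lines (SD; log2 difference 2.15 ± 0.43, SE, adjusted p = 0.00492). The count was 2 without WOL replicate 1 or 2, since scpl35 (adjusted p = 0.0644 and 0.0719) and BGLU25 (0.106 and 0.104) missed the threshold, and also 2 against the other Columbia lines alone (6.04% of all probe sets).

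J0571, labelled ground tissue, differed in 5 of the 49 members, against 4.69% of all probe sets: 2 were higher (2.44%) and 3 lower (2.25%). For 2 of the 5 the J0571 arrays did not overlap the others, as for 1.09% of all probe sets with a call. BGLU43 (AT3G18070) was at 32.3, 26.7 and 35.4 on the J0571 arrays, against 0.347, 1.61 and 23.2 at the lowest, median and highest in the other lines, without overlap. Of the other 12 arrays, 10 were under the array background, and the 2 above it were J3411 replicates 2 and 3. The gene was at least 1.98-fold higher in J0571 (adjusted p = 0.000366). BGLU16 (AT3G60130) was lower, at 71.4, 148 and 105 in J0571, against 214, 366 and 536 in the other lines, without overlap (log2 difference -1.78 ± 0.25, SE, adjusted p = 0.000615). BGLU46 averaged 192 ± 88.2 in J0571 and 119 ± 115 in the other lines (SD; log2 difference 1.29 ± 0.27, SE, adjusted p = 0.00952), a call lost without J0571 replicate 2 (adjusted p = 0.0632). BGLU25 and scpl29 were lower in J0571. Without J0571 replicate 1 or 3 the count was 3, since BGLU25 (adjusted p = 0.0873 and 0.0827) and scpl29 (0.148 and 0.133) missed the threshold.

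**Figure D3:**
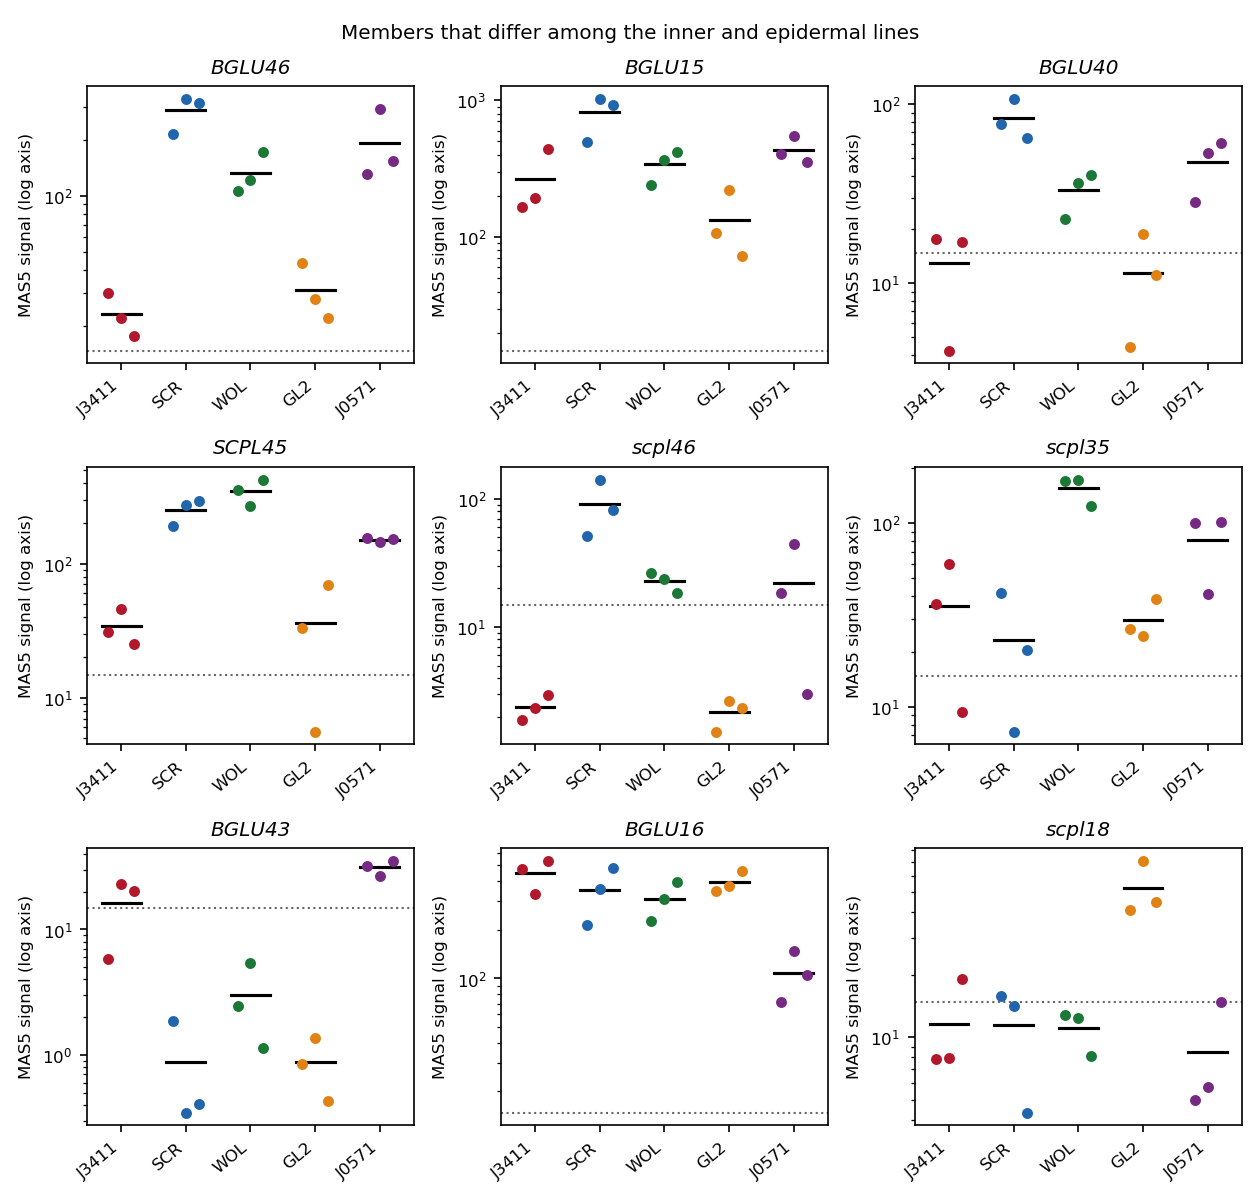
MAS5 signal (log axis) of 9 members that differed in SCR, WOL, GL2 or J0571, by line; points are arrays, black bars the mean of 3 arrays and the dotted line the array background of 14.8. BGLU46, SCPL45 and scpl46 are low in J3411 and GL2 and bright in SCR, BGLU43 is brightest and BGLU16 dimmest in J0571, and scpl18 is above the array background on all GL2 arrays.

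Set side by side over the lines, BGLU46, SCPL45 and scpl46 were each lower in J3411 and in GL2 and higher in SCR. The mean of SCPL45 was highest in WOL, where it was also called higher, and BGLU46 was also called higher in J0571. In SCR the SCPL45 call (adjusted p = 0.0191) was lost without SCR replicate 2 (0.0982) or 3 (0.106). Within the high spike-in class, with 1 SCR array, the log2 differences of BGLU46, SCPL45 and scpl46 in SCR were 1.69, 1.19 and 2.45. Their SCR calls did not hold with the spike-in class in the fit, as given above. The comparisons share arrays, so these calls are not independent of one another. BGLU25 went the other way, being higher in J3411 and GL2 and lower in SCR, WOL and J0571. Its log2 difference in SCR was -0.82 in all arrays and -0.10 (adjusted p = 0.886) in the high class alone, and leaving out SCR replicate 2 (0.111) or 3 (0.18) ended the call. In WOL it was lost against the other Columbia lines alone (adjusted p = 0.0643).

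Along the root, members of both families differed between sections. Between stage II and stage I, 13 of the 49 members differed, against 20.1% of all probe sets: 5 were higher at stage II (1 BGLU and 4 SCPL, against 8.99% of all probe sets) and 8 lower (2 BGLU and 6 SCPL, against 11.1%). Between stage III and stage II, 11 differed, against 30.9%: 6 were higher (2 BGLU and 4 SCPL, against 15.8%) and 5 lower (2 BGLU and 3 SCPL, against 15.2%). Between stage III and stage I, 17 differed, against 43.1%: 10 were higher (4 BGLU and 6 SCPL, against 21%) and 7 lower (2 BGLU and 5 SCPL, against 22.1%). The median log2 difference of the members was -0.08, 0.10 and 0.24 in these 3 comparisons, and that of all probe sets was -0.09, 0.08 and 0.07. Groups did not overlap in 12 of the 13, 10 of the 11 and 16 of the 17, and a call without overlap held for 18.4%, 27% and 37.8% of all probe sets. Each pair of these comparisons shares the arrays of 1 stage.

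Some SCPL genes were dim in the middle section and bright on both sides. The signal of scpl48 (AT3G45010) was 567, 1216, 832 and 1542 at stage I, 172, 144, 130 and 99.3 at stage II, and 763, 904, 1151 and 1025 at stage III. No stage II array overlapped either other stage, and the log2 differences were -2.84 ± 0.27 for stage II against stage I (SE, adjusted p = 1.35e-05) and 2.81 ± 0.27 for stage III against stage II (SE, adjusted p = 9.74e-06). The signal of scpl20 was 143, 280, 232 and 207 at stage I, 47.6, 64.3, 32.2 and 26.4 at stage II, and 161, 198, 203 and 121 at stage III. Its stage II arrays were likewise all below the others, with log2 differences of -2.31 ± 0.28 (SE, adjusted p = 7.33e-05) and 1.99 ± 0.28 (SE, adjusted p = 0.000119).

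Others were brightest at the tip. The gene scpl25 was at 73.5, 167, 117 and 193 at stage I, 37.2, 35.7, 47.0 and 26.4 at stage II, and 17.7, 28.3, 30.7 and 17.6 at stage III. Every stage I array lay above every later one (log2 difference -1.78 ± 0.31 for stage II against stage I, SE, adjusted p = 0.00108, and -2.38 ± 0.31 for stage III against stage I, SE, adjusted p = 2.08e-05). The signal of scpl42 (AT5G42240) was 107, 93.7, 118 and 150 at stage I, 41.2, 50.7, 62.6 and 55.0 at stage II, and 25.6, 24.6, 20.9 and 23.7 at stage III. Its 3 stages did not overlap, and it was lower at stage II than at stage I (log2 difference -1.12 ± 0.21, SE, adjusted p = 0.00168) and lower at stage III than at stage II (-1.06 ± 0.21, SE, adjusted p = 0.00134). At stage II scpl28 was lower too, at 33.5 ± 4.55 against 96.5 ± 17.3 at stage I (SD, n = 4 each, adjusted p = 0.00413), and so was scpl50 (33.6 ± 7.01 against 75.5 ± 26.1, SD, adjusted p = 0.00837). The scpl28 call was lost in the high spike-in class alone (adjusted p = 0.0551). Of the 6 SCPL genes higher in J3411, 4 (scpl20, scpl25, scpl28 and scpl48) were lower at stage II than at stage I, and of the 2 such BGLU genes 0 were. Of all probe sets higher in J3411, 24% were lower at stage II. The root cap marker sum was 699 to 1334 at stage I, 376 to 576 at stage II and 169 to 272 at stage III. Within this sum, sks15 was at 612 to 1205, 285 to 477 and 41.6 to 135 at stages I, II and III. AT4G04460, the other gene in it, was at 87.5 to 196, 67.3 to 99.1 and 84.9 to 172, and did not fall after stage II. The part of the root cap in these results was not tested.

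A further set rose after stage I. The signal of scpl40 (AT3G63470) was 31.1, 28.0, 19.8 and 41.9 at stage I, 241, 189, 212 and 269 at stage II, and 142, 252, 161 and 231 at stage III. All later arrays lay above the stage I arrays (log2 difference 2.85 ± 0.24 for stage II against stage I, SE, adjusted p = 4.92e-06, and 2.62 ± 0.24 for stage III against stage I, SE, adjusted p = 1.09e-06). SCPL27 (AT3G07990) was at 63.0, 69.6, 49.5 and 54.9 at stage I, 187, 224, 186 and 266 at stage II, and 105, 184, 146 and 162 at stage III, with stage I below all later arrays (log2 difference 1.82 ± 0.20 for stage II against stage I, SE, adjusted p = 3.21e-05). The signal of scpl46 was under the array background at stage I, at 8.4, 7.83, 10.5 and 7.82, and was 48.9, 62.7, 53.1 and 92.3 at stage II and 27.3, 25.6, 18.9 and 17.0 at stage III. It peaked at stage II without overlap, at least 4.21-fold above stage I (adjusted p = 3.58e-05), and was lower at stage III than at stage II (log2 difference -1.42 ± 0.28, SE, adjusted p = 0.00148). In the lines scpl40 did not pass any comparison, although it was at 183 on J3411 replicate 3 against 27.1 and 43.9 on replicates 1 and 2, and at 155 on SCR replicate 1 against 45.4 and 45.7 on replicates 2 and 3. The root hair marker sum was high in its group on these 2 arrays, and also on WOL replicate 3 (536, against 229 and 283), where scpl40 was at 75.3, against 73.2 and 102 on WOL replicates 1 and 2. On stage II replicate 1, with a root hair sum of 263 against 56.7 to 75.6 on the other stage II arrays, scpl40 lay within its group. The part of root hair cells in the scpl40 signals was not tested.

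**Figure D4:**
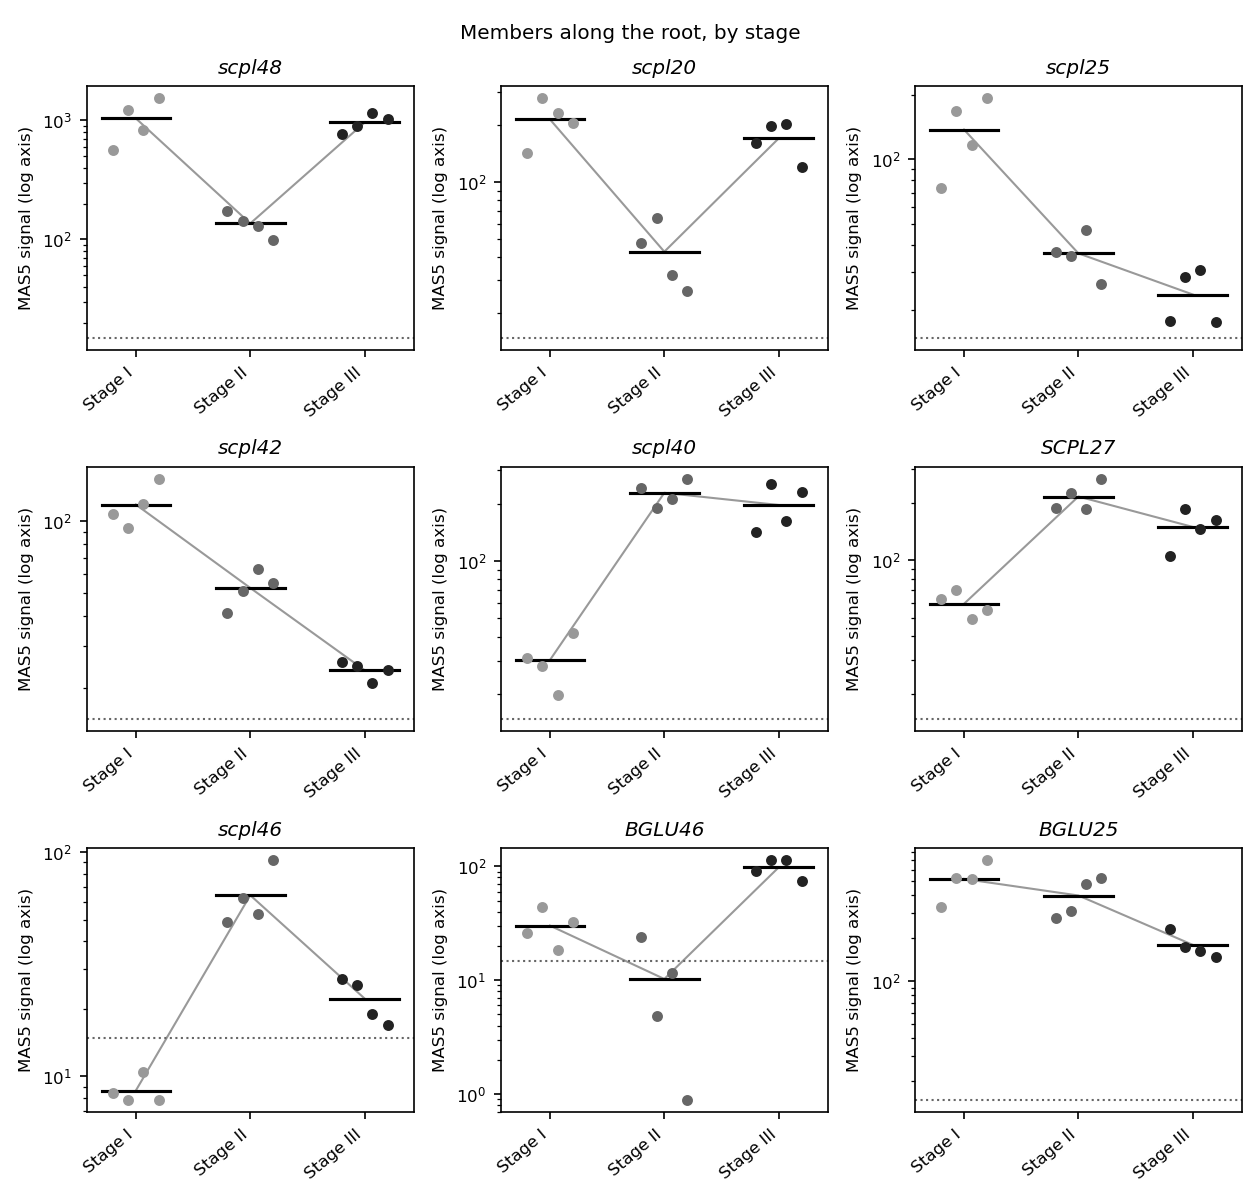
MAS5 signal (log axis) of 9 members at stages I, II and III; points are arrays, black bars the mean of 4 arrays, grey lines join the means and the dotted line is the array background of 14.8. Signals of scpl48, scpl20 and BGLU46 dip at stage II, those of scpl25, scpl42 and BGLU25 are highest at stage I, and those of scpl40, SCPL27 and scpl46 are lowest at stage I.

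Among the beta-glucosidases, BGLU46 was highest in the section with mature root hairs. It was at 25.7, 44.1, 18.6 and 32.3 at stage I, 23.8, 4.81, 11.5 and 0.884 at stage II, and 91.1, 114, 114 and 73.8 at stage III. The stage III arrays lay above all others, at least 5.80-fold above stage II (adjusted p = 0.000198), where 3 of 4 arrays were under the array background, and with a log2 difference of 1.66 ± 0.50 against stage I (SE, adjusted p = 0.0147). The call against stage I was lost without a pseudocount (adjusted p = 0.0708) and in the high spike-in class alone (0.0818). The lower signal of BGLU46 at stage II than at stage I was called (adjusted p = 0.0273), but the groups overlapped and the call was lost without stage I replicate 2 (0.0771) or 4 (0.0646) or stage II replicate 2 (0.0712) or 4 (0.0704). BGLU15 was at 228, 257, 198 and 243 at stage I, 190, 162, 136 and 135 at stage II, and 389, 390, 462 and 391 at stage III. It too was above all other arrays at stage III (log2 difference 1.38 ± 0.15 against stage II, SE, adjusted p = 2.33e-05). BGLU40 averaged 40.7 ± 11.3 at stage III and 15.4 ± 5.41 at stage I (SD, adjusted p = 0.00291), and BGLU41 29.7 ± 6.13 at stage III and 8.28 ± 6.84 at stage I (SD, adjusted p = 0.00416). The BGLU41 call was lost in the high spike-in class alone (adjusted p = 0.0815).

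BGLU25 and BGLU42 were lower in the oldest section. BGLU25 was at 331, 523, 513 and 701 at stage I, 274, 309, 476 and 526 at stage II, and 232, 173, 164 and 148 at stage III, and stage III did not overlap the earlier stages (log2 difference -1.49 ± 0.25 against stage I, SE, adjusted p = 0.000236). BGLU42 (AT5G36890) was at 255, 284, 257 and 295 at stage I, 210, 258, 274 and 243 at stage II, and 150, 138, 155 and 96.5 at stage III. Its stage III arrays were below all others (log2 difference -1.02 ± 0.17 against stage I, SE, adjusted p = 0.000157, and -0.87 ± 0.17 against stage II, SE, adjusted p = 0.00115). On the stage arrays, the ratio of the 3′ to the 5′ GAPDH control signals was 4.34 to 7.85 in the low spike-in class and 14.9 to 31.7 in the high class, against 0.717 to 4.09 in the lines. Each stage had 2 arrays of each class, and within the high class 8 of the 49 members differed between stage II and stage I (12.3% of all probe sets), against 13 in all arrays (20.1%). Between stage III and stage I 12 differed within the high class, against 17 in all arrays (43.1%). The high-class share of all probe sets was not determined for stage III against stage I.

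Of the 3 glucosidases of the monolignol clade, BGLU46 differed among the lines and the stages, whereas BGLU45 and BGLU47 passed no comparison. Whether the patterns of the 3 genes differ from one another was not tested. BGLU45 was above the array background on only 7 arrays, which limits what its missed calls can show. Its mean was highest in SCR among the lines, as for BGLU46, whereas that of BGLU47 was highest in J0571 and lowest in SCR. All 3 had their highest stage mean at stage III. BGLU45 averaged 25.1 ± 4.27 in SCR and 12.6 ± 6.17 in the other lines (SD, adjusted p = 0.104), and BGLU47 averaged 35.5 ± 19.7 at stage III and 20.7 ± 4.68 at stage II (SD, adjusted p = 0.219). Of the 23 listed genes of monolignol synthesis and glucosylation, 5 had a probe set of their own, and their lines and stages of high signal can be set beside those of BGLU46. HCT, an acyltransferase of lignin precursor synthesis, was lower in GL2 (log2 difference -2.12, adjusted p = 7.79e-05) and J3411 (-1.40, adjusted p = 0.00257) and higher at stage III than at stage II (2.93 ± 0.22, SE, adjusted p = 2.83e-06). CCR2, a cinnamoyl-CoA reductase, was lower in GL2 (adjusted p = 0.000161), where it averaged 2.07 ± 0.77 against 158 ± 139 in the other lines (SD). Of the monolignol glucosyltransferases, UGT72E3 was higher at stage III than at stage II (log2 difference 3.33 ± 0.54, SE, adjusted p = 0.000371) and UGT72E1 was higher in J3411 (2.89 ± 0.51, SE, adjusted p = 0.00158). Of the 5 genes, 0 were higher and 3 lower in GL2 (against 7.69% of all probe sets lower). In J3411, 2 were higher and 2 lower (5.02% and 5.28%). In SCR, in the fit without the spike-in class, 3 were higher and 2 lower (7.61% and 9.86%). At stage III against stage II, 3 were higher (15.8%) and 0 lower.

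For the relatives of PYK10, BGLU25 was above the array background on all arrays, while BGLU19 and BGLU24 passed it on at most 5 arrays each. Of 16 listed genes of ER bodies and the PYK10 complex, 7 were measured, PYK10 among them. In J3411, 5 were higher (against 5.02% of all probe sets) and 0 lower, and in GL2 6 were higher (5.1%) and 0 lower. In SCR, in the fit without the spike-in class, 0 were higher and 4 lower (9.86%). In J0571, 0 were higher and 5 lower (2.25%). The median log2 differences in J3411, GL2, SCR and J0571 were 1.61, 1.74, -1.32 and -1.26. NAI2, an ER body protein, had log2 differences of 1.95 ± 0.31 in J3411 (SE, adjusted p = 0.000764) and 3.05 ± 0.31 in GL2 (SE, adjusted p = 1.3e-05).

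Of 9 listed genes of scopoletin synthesis and the iron response, 3 were measured. In J3411, 0 were higher and 2 lower (against 5.28% of all probe sets). In SCR, in the fit without the spike-in class, 1 was higher (7.61%) and 0 lower. At stage III against stage II, 2 were higher (15.8%) and 0 lower. AT3G13610, the feruloyl-CoA hydroxylase of scopoletin synthesis, averaged 123 ± 100 at stage III and 3.11 ± 3.33 at stage II (SD, adjusted p = 0.000137), and AT1G28680, coumarin synthase, 518 ± 122 at stage III and 112 ± 20.8 at stage II (SD; log2 difference 2.18 ± 0.19, SE, adjusted p = 4.65e-06). BGLU42 was lower at stage III than at stage II, as given above. BGLU33, which hydrolyses the glucose ester of abscisic acid, passed no comparison and was at 0.285 to 16.1 on the 27 arrays. Of 7 listed genes of glucose ester synthesis and sinapoyl transfer, which bear on the acyltransferases of the SCPL family, 4 were measured. Among them UGT84A4, a glucosyltransferase that makes hydroxycinnamoyl glucose esters, averaged 94.9 ± 13.0 at stage III and 38.9 ± 13.3 at stage II (SD; log2 difference 1.29 ± 0.25, SE, adjusted p = 0.00129). None of the 13 listed myrosinase and specifier genes had a probe set of its own.

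Several members lie next to each other in the RefSeq annotation of the genome. BGLU15, BGLU28 and BGLU29 are consecutive protein-coding genes. BGLU15 and BGLU28 were both lower in GL2 and higher in SCR, and BGLU29 passed no comparison. BGLU31 and BGLU32 are neighbours, and BGLU32 was called in GL2 and SCR but BGLU31 nowhere. BGLU31 was above the array background on only 1 array, which limits what its missed calls can show. BGLU43 and BGLU44 are neighbours, and in J0571 BGLU44 averaged 33.9 ± 16.1, against 15.0 ± 7.13 in the other lines (SD, adjusted p = 0.177), so that BGLU43 alone of this pair passed. BGLU27 and BGLU16 are neighbours that differed in separate lines, BGLU27 in GL2 and BGLU16 in J0571. The neighbours scpl28 and scpl26 were called in different comparisons: scpl28 was higher in J3411, where scpl26 averaged 184 ± 21.6 against 174 ± 62.1 in the other lines (SD, adjusted p = 0.63). Between stage III and stage II, scpl26 was lower (133 ± 23.7 against 297 ± 70.6, SD, adjusted p = 0.00182). BGLU45 and BGLU46 are described above, and scpl22 and scpl23 passed no comparison. Whether the patterns of neighbours differ from one another was not tested.

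Taking the 5 line and 3 stage comparisons as a whole, 29 of the 49 members passed at least one (11 BGLU and 18 SCPL), against 58.9% of all probe sets, and 20 passed none. The 20 were BGLU19, BGLU24, BGLU29, BGLU31, BGLU33, BGLU36, BGLU44, BGLU45, BGLU47, scpl21, scpl22, scpl23, scpl30, SCPL32, scpl33, scpl38, scpl41, SCPL43, scpl47 and SCPL49. Of these 20, SCPL49, a carboxypeptidase Y homologue, stood above the array background on every array. Its signal was 345 to 682 over the 15 line arrays, and averaged 512 ± 23.8, 598 ± 70.8 and 491 ± 86.2 at stages I, II and III (SD, n = 4 each). In J3411 it averaged 599 ± 73.8, against 436 ± 62.9 in the other lines (SD; log2 difference 0.46 ± 0.15, SE, adjusted p = 0.0651).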

How the data were processed

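The authors deposited a table with 1 linear signal intensity for each probe set and array, made with MAS5 per the submitters' processing notes. Its version was not given in the sources used here. Signals were used as deposited, without the 64 control probe sets. Before taking log2, the 10th percentile of the whole table (2.37) was added. The array background of 14.8 is the 95th percentile over 12 control probe sets for unspiked Bacillus genes. Genes were named from the platform annotation through RefSeq names.

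Line arrays (15) and stage arrays (12) were fitted separately with lmFit and eBayes (intensity trend) in limma 3.58.1 under R 4.3.3, tested on simulated data, with Benjamini-Hochberg adjusted p-values tested at 0.05 over 22746 probe sets. By rule, array values are given for members that passed and whose groups did not overlap, in order of log2 difference. Those of BGLU46, BGLU32, BGLU15, BGLU28 and scpl20 in SCR, where groups overlapped, and of scpl40 in the lines, where it did not pass, were added after their values were seen. Folds of dim genes set arrays under the array background at it, and are marked "at least" where only the dimmer group had such arrays. Members, gene lists, background and spike-in classes were chosen with earlier results of these data known. Alternatives were another or no pseudocount, a constant variance prior, quantile normalization, leaving out dim probe sets, 1 joint fit, a block for spike-in class or its high class alone, Columbia lines alone, the replicate block, another choice of probe set, and each array left out. Replicate numbers are not stated to pair arrays. All 49 probe sets carry the plain suffix of unique designs.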

Additional observations from a re-analysis of the deposited data

Results flagged for a closer look

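In the stages, 83 groups of 4 arrays with a mean above the array background were examined for an array far from the other 3, by the gap to its nearest neighbour over the whole range, set against Dixon's critical value for 4 samples. Such gaps arise by chance in about 1 of 20 groups, and 2 were found here. BGLU28 was at 49.7 on stage II replicate 1, against 4.74 to 10.4 on the other 3 stage II arrays. BGLU15 was at 462 on stage III replicate 3, against 389 to 391 on the other 3 stage III arrays.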

How the results depend on the processing

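With a block for spike-in class, the count of members called was 0 for SCR (16 in the fit without it) and 8 for J0571 (5). In the high class alone it was 0 for SCR, where 1 SCR array is left, and 8 for stage II against stage I (13), where 2 arrays per stage are left. Against the other Columbia lines alone it was 2 for WOL (4), and among the 3 Columbia lines alone 14 members differed (22). With each array left out in turn, the counts ran from 9 to 14 for J3411, 6 to 16 for SCR, 2 to 4 for WOL, 11 to 20 for GL2, 3 to 6 for J0571, 20 to 24 among the lines, 10 to 14 for stage II against I, 9 to 13 for III against II, 15 to 19 for III against I, and 18 to 23 among the stages. Of 95 called pairs of a member and a comparison, 44 kept their call under every alternative and none of the 16 SCR pairs did, and of 2269 recomputed values 2072 kept the call, 197 lost it and 0 changed sign. These counts include the other choice of probe set, which could not change a call, since each of the 49 members had 1 probe set.

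With the replicate block the counts were 14, 13, 5, 15 and 5 for J3411, SCR, WOL, GL2 and J0571, 22 among the lines, 15, 14 and 19 for stage II against I, III against II and III against I, and 23 among the stages. Deviations of same-numbered arrays correlated at -0.22 to 0.12 in the lines and 0.10 to 0.29 in the stages, and 1 of 15 line arrays but 12 of 12 stage arrays correlated best with their own number, a hint from the data and not from the design. Same-numbered stage arrays also share the spike-in class, whose part in these correlations was not tested. Signals under the array background limit the dim members.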
